A study of Mus musculus with 16 samples.

Results

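The 7 genes described here, Sall1, Osr1, Lhx1, Pax8, Foxd1, Hnf4a and Emx2, encode transcription factors of the kidney. They were taken by gene symbol, with no measured value in the rule, though earlier results of these data were known. All 7 were found among the 43984 genes of the histone tables and the 55471 genes of the methylation table. Chromatin was measured in mouse induced pluripotent stem cells (iPSCs), which are somatic cells returned to a state resembling the early embryo. PTC iPSC lines PTC11 and PTC12 came from proximal tubule cells of the kidney, and TTF iPSC lines TTF1 and TTF4 came from tail tip fibroblasts, so that each origin had 2 lines. H3K4me3 and H3K36me3 were measured by ChIP-seq and CpG methylation by nanopore sequencing, with 1 library per line, which makes the line the replicate. The paper states that ChIP was done in duplicate, and 1 library per line and mark was available here. Labels of the histone values carry a 1 or a 2 after the line name, which differs between lines. The comparison asks whether iPSCs that were once kidney cells carry marks at kidney genes that differ from those of iPSCs that were once fibroblasts.

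Every line carried the same transgenes. Cells came from young adult littermates that carried SLC34a1-GCE, a tdTomato reporter, rtTAROSA (neo-in) and OKMS-250, in which doxycycline switches on Oct4, Klf4, c-Myc and Sox2, and the mice had been fed tamoxifen. In the PTC, Cre was driven by the SLC34a1 promoter, and cells positive for tdTomato and GFP were sorted before doxycycline was added. Since TTF do not use that promoter, they received Cre from a non-integrating plasmid by electroporation. The cell of origin therefore cannot be told apart from the way Cre was delivered. Each line was 1 clone of early passage that grew without doxycycline, and the methods describe iPSC culture on mouse embryonic fibroblast feeder cells.

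Kidneys form from the intermediate mesoderm. Osr1 acts early there and in nephron progenitors, Sall1 is needed in the metanephric mesenchyme for the ureteric bud to grow in, and Lhx1, Pax8 and Emx2 act in the nephric duct, the ureteric bud and the early nephron. Foxd1 marks progenitors of the renal stroma, and Hnf4a is a nuclear receptor of the maturing and adult proximal tubule. H3K4me3 lies at transcription start sites (TSS) of genes that are active or held ready for use, and in pluripotent cells many developmental genes carry it without being transcribed. H3K36me3 accumulates over gene bodies behind elongating RNA polymerase. CpG-rich promoters are usually free of DNA methylation, whereas CpG-poor promoters often carry it.

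The number of CpGs around the start sites set 4 of the 7 genes apart from the other 3. Within 1000 bp to each side of the TSS the mouse reference sequence held 150 CpGs at Foxd1, 135 at Lhx1, 121 at Emx2 and 116 at Sall1. These counts lie at percentiles 97.1, 95.4, 93.2 and 92.1 of 55348 genes, for which the median was 25 CpGs and the quartiles 13 and 60. Osr1 had 41, Pax8 40 and Hnf4a 35 CpGs, at percentiles 67.3, 66.8 and 62.9, which is above the median and within the quartiles of all genes. The CG pair was searched on the printed strand and reads the same on the other. At least 1 CG was present in 99.97% of all such windows, so it is the number that sets the groups apart. To show the contrast, the 200 bases before the start site are printed for 2 genes of the CpG-rich group and 2 of the others from 5′ to 3′ on the strand of the gene, with each CG in capitals, read from GRCm38, which is the same assembly as mm10. Lhx1 (chr11:84525536-84525735, minus strand) held 23 CGs in this stretch and Emx2 (chr19:59458172-59458371, plus strand) 11, against 6 at Pax8 (chr2:24475600-24475799, minus strand) and 1 at Hnf4a (chr2:163506608-163506807, plus strand).
Lhx1: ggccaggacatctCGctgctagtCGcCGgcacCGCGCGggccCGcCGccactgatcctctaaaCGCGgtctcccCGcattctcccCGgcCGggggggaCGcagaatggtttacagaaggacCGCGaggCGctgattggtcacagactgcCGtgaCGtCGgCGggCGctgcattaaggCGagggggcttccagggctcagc
Emx2: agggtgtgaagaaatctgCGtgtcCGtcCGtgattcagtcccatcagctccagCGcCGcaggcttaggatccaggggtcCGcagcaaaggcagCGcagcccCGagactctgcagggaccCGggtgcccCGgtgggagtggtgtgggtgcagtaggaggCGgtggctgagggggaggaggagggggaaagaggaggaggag
Pax8: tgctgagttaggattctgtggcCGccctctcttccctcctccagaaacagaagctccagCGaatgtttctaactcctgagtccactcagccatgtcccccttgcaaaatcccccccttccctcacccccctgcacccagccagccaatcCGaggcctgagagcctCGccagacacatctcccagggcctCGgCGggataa
Hnf4a: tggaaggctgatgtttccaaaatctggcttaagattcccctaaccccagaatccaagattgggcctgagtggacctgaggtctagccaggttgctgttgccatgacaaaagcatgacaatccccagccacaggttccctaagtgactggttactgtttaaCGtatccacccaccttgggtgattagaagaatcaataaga

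In mm10, as the methylation table lists them, Sall1 spans chr8:89027235-89044162 on the minus strand, Osr1 chr12:9570116-9581500 on the plus strand, Lhx1 chr11:84518284-84525535 on the minus strand and Pax8 chr2:24420560-24475599 on the minus strand. Foxd1 spans chr13:98354242-98359305, Hnf4a chr2:163506808-163572910 and Emx2 chr19:59458372-59465357, all on the plus strand. The histone and methylation tables use the same TSS for Sall1, Pax8 and Hnf4a. Their start sites differ by 3 bp at Foxd1, 318 bp at Emx2 and 480 bp at Lhx1. At Osr1 they differ by 4326 bp, so that H3K4me3 and methylation were measured at separate places, and the histone start site had 62 CpGs around it. Hnf4a has a second start in the annotation 40380 bp downstream, at chr2:163547188, with 43 CpGs around it, which neither the H3K4me3 nor the methylation values cover.

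H3K4me3 values are RPKM, which is read density scaled to length and sequencing depth, after subtraction of input, averaged by the authors over the called peaks from 2 kb before to 3 kb after the TSS. A gene without a called peak has no value, and the authors also excluded called peaks that did not exceed the input. H3K36me3 was averaged in the same unit over the gene body. Methylation is the fraction of CpG calls that were methylated, averaged over windows within 1 kb of the TSS. No file used here gives reads or coverage behind these values, so their depth is unknown and counting error cannot be quantified.

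The lines differed over all genes in ways that cross the cell of origin. The line median of H3K4me3 was 3.69 RPKM for PTC11 and 4.59 for PTC12, against 5.01 for TTF1 and 3.65 for TTF4, and that of H3K36me3 was 1.60, 3.88, 1.18 and 4.01 RPKM. Mean methylation was 0.372 in PTC11 and 0.482 in PTC12, with 0.379 in TTF1 and 0.649 in TTF4, and TTF4 was the most methylated line at 75.4% of 50657 genes with all 4 values. Of 9 pluripotency genes, 8 had H3K4me3 in PTC11, PTC12 and TTF1 and 6 in TTF4, with Pou5f1, Nanog and Sox2 present in every line and Esrrb in none. Zfp42 and Dppa5a had no H3K4me3 value in TTF4, where their methylation was 0.803 and 0.771, the highest of the 4 lines at both genes. Of 7 proximal tubule genes, Lrp2 and Slc27a2 had H3K4me3 in every line, at 3.26 to 7.15 RPKM, and the other 5, Slc34a1 among them, in none. Of 7 fibroblast genes 2, 5, 5 and 4 had a value in PTC11, PTC12, TTF1 and TTF4, in the range of 2.65 to 4.96 RPKM, with Thy1 present in every line, Col1a1, Col1a2 and Prrx1 in every line but PTC11, Twist2 in every line but TTF4, and Col3a1 and Postn in none. The part of these differences between lines in the values below was not tested.

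H3K4me3 was found at all 7 genes in at least 1 line, as at 21758 of the 43984 genes listed. As at 13709 genes, it was found in all 4 lines at Sall1, Lhx1, Foxd1 and Emx2. These 4 are the CpG-rich genes. Osr1, Pax8 and Hnf4a each lacked a value in 1 line or more, and at Osr1 the start site used for H3K4me3 is the one with 62 CpGs, at percentile 75.5.

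Sall1, a zinc finger repressor, had the highest H3K4me3 of the group in 3 of the 4 lines, with 4.19 RPKM in PTC11 and 6.21 in PTC12, and 6.55 in TTF1 and 3.79 in TTF4. It stood at percentiles 77.7, 81.6, 78.3 and 57.9 of all genes with a value in those lines. PTC12 and TTF1 were high and PTC11 and TTF4 low, and the origins overlapped. PTC lines averaged 5.20 ± 1.43 RPKM (SD, n = 2) and TTF lines 5.17 ± 1.95 (SD, n = 2).

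Lhx1, a LIM homeobox gene, had the narrowest spread of the 4 genes with every value. Its H3K4me3 was 3.49 RPKM for PTC11 and 4.09 for PTC12, against 4.59 for TTF1 and 3.79 for TTF4, with means of 3.79 ± 0.426 in PTC lines and 4.19 ± 0.569 in TTF lines (SD, n = 2 each). In TTF4 its value equalled that of Sall1 to 3 digits.

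Foxd1, a forkhead gene, ranged from 3.25 RPKM in TTF4 to 6.20 in TTF1, with 3.62 in PTC11 and 4.73 in PTC12. Both extremes were TTF lines, with a mean of 4.72 ± 2.08 RPKM against 4.17 ± 0.788 in the PTC lines (SD, n = 2 each).

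Emx2, a homeobox gene, had 2.57 RPKM in PTC11 and 4.72 in PTC12, with 4.23 in TTF1 and 3.17 in TTF4. Its place among all genes moved from percentile 6.70 in PTC11 to 52.6 in PTC12, so that here the wider gap was within the PTC lines, at 3.64 ± 1.52 RPKM against 3.70 ± 0.750 in the TTF lines (SD, n = 2 each).

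Osr1, a zinc finger gene, had no value in PTC11 and 4.11 RPKM in PTC12, 4.55 in TTF1 and 3.17 in TTF4. A value in every line but PTC11 was found for 1193 genes, or 5.48% of 21758 genes with H3K4me3 in any line. Pax8, a paired box gene, had 2.95 RPKM in PTC11, 2.86 in PTC12 and 2.50 in TTF1, and no value in TTF4. These levels were low, at percentiles 13.8, 19.6 and 13.2, and the absence from TTF4 alone was shared by 1115 genes (5.12%). Hnf4a had a value in PTC12 only, of 3.14 RPKM at percentile 23.8, a pattern of 1787 genes (8.21%). Osr1 and Pax8 thus lacked a value in 1 line, a PTC line for the former and a TTF line for the latter. For Hnf4a both TTF lines and 1 PTC line lacked one.

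**Figure D1:**
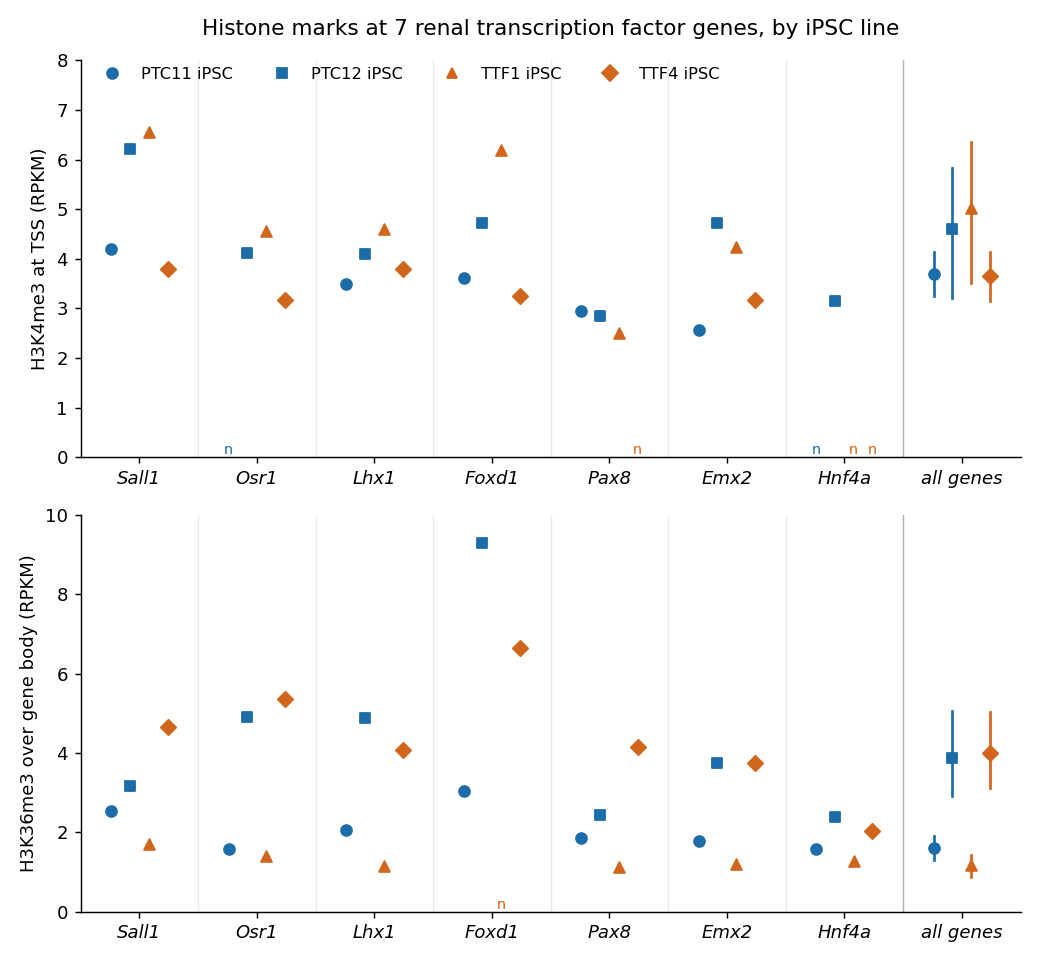
H3K4me3 around the TSS (upper panel) and H3K36me3 over the gene body (lower panel), in RPKM, of each gene in PTC iPSC lines (blue) and TTF iPSC lines (orange), 1 point per library, with n where a line has no value. The last column gives the median and quartiles of all genes with a value in that line; PTC12 and TTF1 are the higher lines in H3K4me3, PTC12 and TTF4 in H3K36me3.

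The order of the lines at the 4 genes with complete H3K4me3 was that of the whole table. PTC12 and TTF1 both lay above PTC11 and TTF4 at 4 of 4, and at 81.4% of the 13709 genes with all values. The origins did not separate at any of the 4, against 8.21% of those genes.

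No difference between origins passed the test in H3K4me3. On the log2(RPKM + 1) scale, limma gave TTF minus PTC differences of -0.03 for Sall1, 0.05 for Emx2, 0.10 for Foxd1 and 0.12 for Lhx1. Their 95% intervals were wide, from -0.98 to 0.93 for Sall1 and from -0.62 to 0.86 for Lhx1, and each adjusted p was 1 (Benjamini-Hochberg over 13709 genes). None of the 4 was called, beside 0.481% of the genes tested (66 genes), and none had an unadjusted p under 0.05, beside 134 genes. Their median difference was 0.08, and that of all genes 0.04. Osr1, Pax8 and Hnf4a were not in this fit because a line had no value.

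H3K36me3 was found over all 7 genes, with a value in every line except for Foxd1 in TTF1. Of the 43984 genes listed, 31197 had a value in any line and 17039 in all 4. Foxd1 had the highest H3K36me3 of the group in the 3 lines with a value. It had 3.03 RPKM in PTC11, 9.30 in PTC12 and 6.65 in TTF4, at percentiles 98.2, 98.1 and 92.3. These values cover chr13:98354245-98356705, a shorter body than that listed above. The pluripotency genes with a value had median percentiles of 64.0, 70.7 and 88.5 in those lines, and the proximal tubule genes 43.9, 36.8 and 65.0. A list of 40 other kidney regulators, described below, had medians of 71.3, 58.1 and 50.2. Single genes of these lists stood as high as Foxd1. Foxc2, a regulator of that list, lay at percentiles 99.5, 97.3 and 94.9, and the pluripotency gene Sox2 had 3.55 RPKM in PTC11. Pou5f1 and Nanog had no value in TTF4. Transcription of Foxd1 was not measured in the data used here. By RT-qPCR, which measures RNA, the paper found low expression of renal progenitor markers in undifferentiated PTC and TTF iPSCs. Foxd1 was among its primers, but the paper's text gives no Foxd1 value for those cells. TTF1, the line without a value at Foxd1, was also the line of lowest median, and 2443 genes (7.83% of 31197) lacked a value there alone.

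Among the other genes the lines kept a fixed arrangement. Osr1 had 1.58 RPKM in PTC11 and 4.89 in PTC12, and 1.40 in TTF1 and 5.35 in TTF4. Lhx1 had 2.07, 4.88, 1.14 and 4.07 RPKM in the same order of lines, and Emx2 1.79, 3.76, 1.19 and 3.74 RPKM. At each gene PTC12 and TTF4 were high and PTC11 and TTF1 low, so that each origin supplied 1 high and 1 low line.

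Sall1 had 2.53 RPKM for PTC11 and 3.17 for PTC12, against 1.71 for TTF1 and 4.65 for TTF4. Relative to all genes it stood higher in the lines of low median, at percentile 94.5 in PTC11 and 88.6 in TTF1, than in PTC12 (30.6) or TTF4 (67.3). Pax8 had 1.86, 2.43, 1.14 and 4.15 RPKM, at percentiles 72.9, 15.9, 45.8 and 54.0. Hnf4a was the gene with the smallest spread, at 1.57, 2.38, 1.29 and 2.02 RPKM, and lay at percentile 9.46 in TTF4 and 15.3 in PTC12.

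PTC12 and TTF4 both lay above PTC11 and TTF1 at all 6 genes with complete H3K36me3, and at 93.6% of the 17039 genes tested. The origins overlapped at all 6, against 3.5% of genes where they did not. Differences of TTF minus PTC on the log2(RPKM + 1) scale were -0.37 for Lhx1, -0.18 for Emx2, -0.17 for Hnf4a, 0.00 for Osr1, 0.03 for Sall1 and 0.08 for Pax8. Each had a limma adjusted p of 1, and the interval for Lhx1 ran from -2.48 to 1.75. None of the 6 was called, beside 0.112% of genes (19 genes), and none had an unadjusted p under 0.05, beside 116 genes. The median over the 6 was -0.08 and over all genes -0.14.

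CpG methylation around the TSS differed widely between the 7 genes. Sall1 and Lhx1 were nearly free of it in every line, Foxd1 and Emx2 carried little to moderate methylation that depended on the line, Osr1 was at an even moderate level, and Hnf4a and Pax8 were the most methylated in all 4 lines.

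Sall1 had a methylated fraction of 0.00738 in PTC11 and 0.0180 in PTC12, with 0.0636 in TTF1 and 0.0119 in TTF4. Lhx1 was listed at 0 in PTC11 and TTF4 and at 0.0261 in PTC12 and 0.0211 in TTF1. TTF4, the line of highest mean methylation, was thus listed at or near 0 at these 2 genes. The range over the lines, 0.0562 at Sall1 and 0.0261 at Lhx1, was far below the median range of 0.378 over all genes.

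Foxd1 had fractions of 0.0509 in PTC11 and 0.200 in PTC12, and 0.00744 in TTF1 and 0.133 in TTF4. Genes with 100 or more CpGs in the same window had a median of 0.0451, 0.0627, 0.0445 and 0.139 in those lines, over 6527 genes. Foxd1 was therefore above that median in both PTC lines, narrowly in PTC11, and below it in both TTF lines, narrowly in TTF4.

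At Emx2, TTF4 had the lowest fraction of the 4 lines. The methylated fraction was 0.376 in PTC12, 0.153 in PTC11, 0.0848 in TTF1 and 0.00740 in TTF4, so that both PTC lines were above both TTF lines. TTF4 was the lowest of the 4 lines at 2.99% of all genes and at 7.28% of the CpG-rich genes just described, and PTC12 was highest with TTF4 lowest at 3.26% of the latter. Among the CpG-rich genes, only Gm17330 matched or exceeded the fall of 0.369 from PTC12 to TTF4 at Emx2. It had 0.397 in PTC12, was listed at 0 in TTF4 and is named because of that value. Both lines were picked as the extremes at Emx2 itself. A fall at least as large was found at 11 of 9102 genes with 50 to 99 CpGs and at 276 of 35028 with fewer. Among all genes the range over the lines at Emx2 lay at percentile 48.2, beside a median range of 0.378. Without correction for the mean of the line, both TTF lines lay below both PTC lines at 1 of the 7 genes, Emx2, and at 3.36% of all genes.

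The antisense gene Emx2os starts 263 bp from Emx2 and shares most of its window, so it adds no independent value. Its fractions were 0.0882 for PTC11 and 0.217 for PTC12, against 0.0758 for TTF1 and 0.00444 for TTF4, in the same order of lines. The nearest genes with a window of their own did not share that order. At 2700089I24Rik, 34764 bp downstream, the fractions were 0.628, 0.486, 0.536 and 0.824 in PTC11, PTC12, TTF1 and TTF4, and at Gm33756, 68588 bp upstream, 0.432, 0.549, 0.349 and 0.718. TTF4 was the highest line at both. PTC12 had the highest level of both methylation and H3K4me3 at Emx2.

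Osr1 had fractions of 0.279 in PTC11 and 0.354 in PTC12, with 0.370 in TTF1 and 0.359 in TTF4, a range of 0.0912 that lies at percentile 7.50 of all genes. As deposited, both TTF lines lay just above both PTC lines, at 1 of the 7 genes and at 20.5% of all genes, and after centring the origins overlapped. These values belong to the upstream start site and not to that of the H3K4me3 peak.

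Hnf4a had fractions of 0.320 in PTC11 and 0.583 in PTC12, and 0.434 in TTF1 and 0.843 in TTF4. Pax8 had 0.611, 0.538, 0.509 and 0.904 in that order of lines. TTF4 was highest at both genes, while the other TTF line lay below 1 or both PTC lines. PTC12, the only line with H3K4me3 at Hnf4a, was the second most methylated there. At Pax8, TTF4 was both the most methylated line and the only one without an H3K4me3 value. Genes with H3K4me3 in all 4 lines had median fractions of 0.0696, 0.0998, 0.0704 and 0.211, whereas genes with none had medians between 0.494 in PTC11 and 0.840 in TTF4. Of 1952 genes with H3K4me3 in 3 lines, as at Pax8, 61 (3.13%) had a fraction of at least 0.5 in every line. Pax8 was among them, though its 0.509 in TTF1 lay close to that cut.

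**Figure D2:**
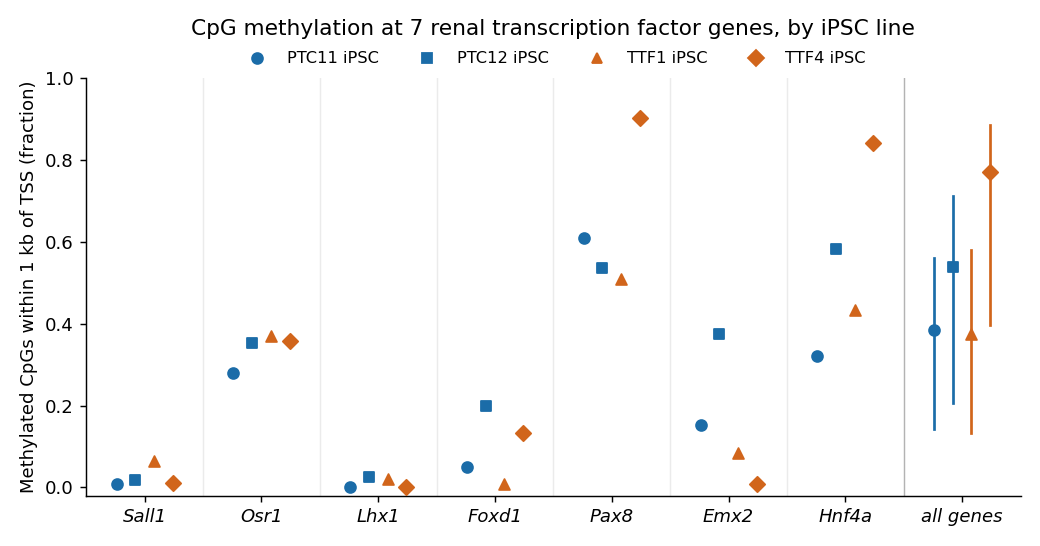
Fraction of methylated CpGs within 1 kb of the TSS, as deposited, with 1 point per line in the colours of PTC (blue) and TTF (orange). The last column gives the median and quartiles of all genes. TTF4 is the highest line over all genes and at Pax8 and Hnf4a, and the lowest at Emx2.

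**Figure D3:**
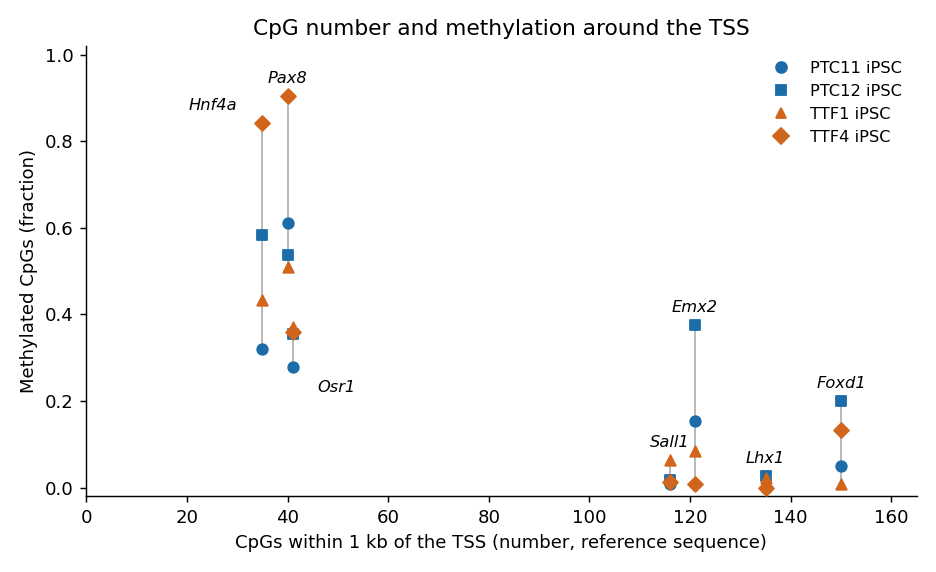
Number of CpGs within 1 kb of the TSS in the reference sequence (horizontal) against the methylated fraction in each line (vertical), with a grey bar from the lowest to the highest line of a gene. The 3 genes with 35 to 41 CpGs lie between 0.279 and 0.904, and the 4 with 116 to 150 CpGs between 0 and 0.376, with the upper end of the latter set by Emx2 in PTC12.

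For the test between origins, fractions were centred on the mean of their line, as in the methods of the study. The TTF line means averaged 0.0871 above the PTC line means, so the subtraction lowers every TTF minus PTC difference by that amount. A gene without methylation in any line thereby comes out lower in TTF lines. At Lhx1 the difference was -0.0896 after centring and -0.00250 before, and at Sall1 it was -0.0620 after and 0.0250 before.

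No gene of the group passed the test in methylation. Emx2 had the largest difference, -0.305 in the centred fraction (SE 0.134, 95% interval from -0.573 to -0.0374), with an unadjusted limma p of 0.0263 and an adjusted p of 0.963 over 50657 genes. As deposited the difference was -0.218, with group means of 0.264 ± 0.158 for PTC lines and 0.0461 ± 0.0547 for TTF lines (SD, n = 2 each). Leaving out TTF1 made Emx2 a call, at -0.479 with a limma adjusted p of 0.00761, in a fit in which 1020 genes were called and the lone TTF line was assumed to vary as the PTC lines did. Without any other line Emx2 was not called, and its difference was -0.132 without TTF4.

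The other 6 centred differences were -0.142 for Foxd1, -0.0896 for Lhx1, -0.0620 for Sall1, -0.0392 for Osr1, 0.0449 for Pax8 and 0.0994 for Hnf4a, each with a limma adjusted p of 1.00. None of the 7 was called, beside 0.00395% of genes (2 genes), and 1 of the 7, Emx2, had an unadjusted p under 0.05, beside 2392 genes. After centring both TTF lines lay below both PTC lines at Foxd1 and Emx2, 2 of 7, and at 12.8% of all genes. The median difference of the 7 was -0.0620 and that of all genes -0.0100. With 2 lines against 2, an exact permutation test cannot give a two-sided p below 0.333, and the limma tests rest on the spread shared across genes.

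**Figure D4:**
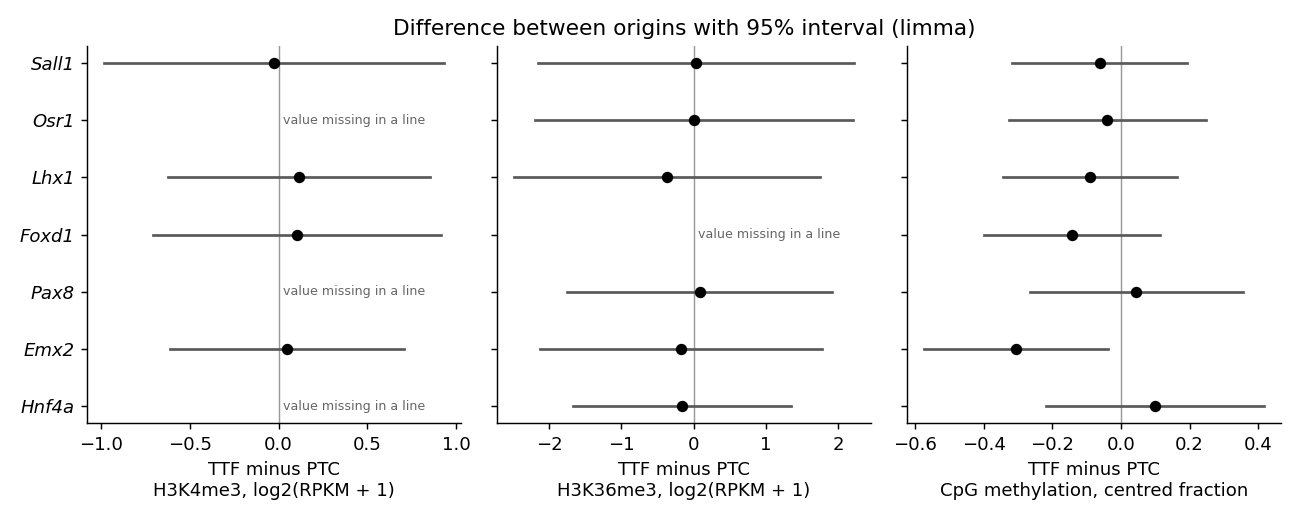
TTF minus PTC difference of each gene in H3K4me3 and H3K36me3 (log2(RPKM + 1)) and in CpG methylation (fraction minus the line mean), with points for the limma estimate and bars for the 95% interval from 2 lines per origin. Only the methylation interval of Emx2, from -0.573 to -0.0374, does not include 0, before adjustment over all genes.

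A list of 40 other transcriptional regulators of kidney development gave no call either. In H3K4me3, 31 of the 40 had all 4 values, of which 19 were higher and 12 lower in TTF lines, with a median difference of 0.06 (log2) and 60.8% of all genes higher. The lowest and highest differences belonged to Tfcp2l1, a collecting duct and pluripotency factor, at -0.46 and Hoxa11 at -0.29, and to Etv5 at 0.28 and Meis1 at 0.28. Tfcp2l1 had 5.97 RPKM in PTC11 and 6.35 in PTC12 against 4.29 in TTF1 and 4.15 in TTF4. These groups did not overlap, and its limma adjusted p was 1. Hoxa11 was the only other regulator of the 31 whose origins did not overlap. It had 3.87 and 3.92 RPKM in PTC11 and PTC12 against 3.36 and 2.68 in TTF1 and TTF4. Origins did not overlap at 8.21% of all 13709 genes with 4 values.

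In H3K36me3, 6 of 38 regulators were higher and 32 lower in TTF lines, where 25.3% of all genes were higher. The lowest were Foxc2 at -0.84 and Osr2 at -0.80, and Gata3 was the highest at 0.23. In centred methylation, 6 of 40 were higher and 34 lower, with 47.0% of all genes higher and a list median of -0.0904, beside the 0.0871 by which centring lowers each difference. The lowest were Tcf21 at -0.200 and Tfap2a at -0.190, and Foxi1 was among the highest at 0.133.

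H3K27me3, a mark of repressed genes, had a value at only 11 to 144 genes per library, too few to describe the group. The 2 PTC libraries both carried the name of line PTC11, and the mark was not compared. Of the 7 genes only Lhx1 had a value, 1.65 RPKM in the first PTC11 library.

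Sall1, Lhx1 and Emx2 had all 12 values over the 3 assays, and the genes most like them were found among 9725 such genes by distance over the 12 values, each assay divided by its SD. Nearest to Sall1 were Klf3 (distance 0.733) and Ddx50 (0.735), where the median gene lay at 2.69. Lhx1 was nearest to its antisense gene Lhx1os (0.595), listed as 1500016L03Rik in the histone tables, which starts 125 bp away and shares its H3K4me3 value in PTC11, TTF1 and TTF4. The next was Nfatc1 (0.605), with the median gene at 2.84. Emx2 had no gene as near among the candidates, since Ror1 (1.35) and Slc39a8 (1.40) were the closest and the median gene lay at 3.55. Its antisense gene Emx2os was not a candidate, because it had no H3K36me3 value in TTF1.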

How the data were processed

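ChIP-seq and nanopore libraries of 2 PTC iPSC and 2 TTF iPSC lines were analysed. For the histone marks the authors deposited RPKM per gene: reads were aligned to mm10 with bowtie2 2.1.0, peaks were called against input with MACS2 2.0.10, and reads were counted with bedtools 2.17.0, after which input RPKM was subtracted and peaks averaged. For methylation the authors deposited the fraction of methylated CpGs per gene, from Nanopolish calls on reads aligned with minimap2 2.17-r941, averaged in sliding windows. Tool names and versions come from the submitters' processing notes and the methods. No reads or coverage were given, so precision rests on the spread between lines, which may be partly technical. Samples were grouped by title, and all columns of per-sample values were mapped (0 were not). The 7 genes and the gene lists were chosen with earlier results of these data known.

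The comparison took genes for which every line had a value and used limma 3.58.1 under R 4.3.3 (lmFit, then moderated two-sided tests from eBayes, trend on), for RPKM as log2(RPKM + 1), a scale that shrinks changes of low genes, and for fractions after subtraction of the line mean. P-values were adjusted by Benjamini-Hochberg over all genes, with a threshold of 0.05. No read-based test was possible on these units. The fitting code was tested on simulated data. H3K27me3 was not tested because its 2 PTC libraries are both named for PTC11. Named genes are the 7, their antisense genes, marker genes, the 2 genes nearest by all 12 values, and from 40 other regulators those called and the 2 highest and 2 lowest differences in each assay. A gene that this rule selects is not reported here. Flanking genes of Emx2 and Gm17330 were chosen after the values were seen. Sequence was read from GRCm38, with GENCODE start sites that equal those of the methylation table. Alternatives varied the pseudocount, filter, missing values, scale, centring, normalization, sex chromosomes, variance trend and each line left out. Other steps used Python 3.11.15, numpy 2.4.6, pandas 2.3.3, scipy 1.17.1 and matplotlib 3.10.9.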

Additional observations from a re-analysis of the deposited data

Results flagged for a closer look

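H3K27me3 at Lhx1 stands out because it lies in libraries that no comparison used: the first PTC11 library had 1.65 RPKM there, and the second PTC11 library and both TTF libraries had no value. It rests on 1 library without a replicate.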

How the results depend on the processing

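No paired analysis was possible because the groups compared share no line numbers. No member was called under any alternative, with the exception of Emx2 methylation without TTF1 (adjusted p 0.00761, limma), so that the number of members called in methylation ranged from 0 to 1 over fits with a line left out. Over the alternatives, 30 of 36 member values in H3K4me3 kept their direction, 40 of 54 in H3K36me3 and 54 of 63 in methylation, where Emx2, Foxd1 and Hnf4a kept theirs throughout. The cause of the changes was not tested.

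The number of genes called between origins was 66 in H3K4me3 and 102 with a pseudocount of 0.1, and 19 and 44 in H3K36me3. It was 0 in both with a mean of at least 1 RPKM, with 0 in place of a missing value, with quantile normalization and with no variance trend. In methylation it was 2, and 0 without centring, on the logit scale or with quantile normalization, 9 without chromosomes X and Y and 1 with no variance trend. With each line left out in turn it ranged from 59 to 108 in H3K4me3 (main 66; most without TTF1), from 1 (without TTF4) to 31 (without PTC11) in H3K36me3, and from 0 (without PTC12) to 1020 (without TTF1) in methylation. Differences of TTF minus PTC turned in direction for H3K36me3 at Osr1 with a pseudocount of 0.1 (-0.018) and at Hnf4a with quantile normalization (0.031). In methylation they turned without centring at Sall1 (0.0250) and Osr1 (0.0479), and with quantile normalization at Sall1 (0.0417) and Lhx1 (0.00687).

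With a line left out, H3K4me3 differences ranged from -0.35 to 0.30 at Sall1, -0.27 to 0.48 at Foxd1 and -0.29 to 0.39 at Emx2. H3K36me3 differences ranged from -0.50 to 0.56 at Sall1, -0.70 to 0.70 at Osr1, -0.99 to 0.26 at Lhx1, -0.55 to 0.72 at Pax8, -0.37 to 0.034 at Hnf4a and -0.73 to 0.38 at Emx2. Methylation differences ranged from -0.223 to 0.0990 at Sall1, -0.180 to 0.102 at Osr1, -0.235 to 0.0562 at Lhx1 and -0.0468 to 0.137 at Pax8. Removing 1 library can thus turn most of these differences, and 2 lines per origin limit what can be seen.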
